A study of Homo sapiens with 18 samples.

Results

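The genes described here are the 10 that encode the NF-κB subunits and the best-known inhibitors that NF-κB itself induces: NFKB1, NFKB2, RELA, RELB and REL for the subunits, and NFKBIA, NFKBIE, TNFAIP3, BIRC3 and BCL3 for the inhibitors and modulators. They were taken by name, by matching the Ensembl identifier of each row of the raw count table to its gene symbol, and all 10 were found among the 35044 genes listed. All 10 also passed the filter on low counts, with which 18335 genes were tested.

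The study sequenced RNA from HCC1937, a breast cancer line with a BRCA1 mutation, carrying either an empty vector (EV) or overexpressed wild-type BRCA1 (OE). Cells were untreated or had been exposed for 12 h or 24 h to olaparib, an inhibitor of the DNA repair enzyme PARP, given at 10 µmol/L in the figure legends of the study. The design holds 18 libraries, 3 for each of 6 conditions, and asks how each line responds to the drug and whether BRCA1 alters that response. The only untreated libraries are those of 0 h, with no vehicle controls at 12 h or 24 h. Drug and time in culture therefore cannot be told apart, and a response here means the change from the untreated libraries. The sample labels give olaparib as the treatment also for the time point of 0 h and call the EV genotype WT, whereas the study describes these cells as untreated and as BRCA1-mutated. No source used here says that the 3 libraries of a condition came from separate cultures, so p-values measure the spread between these libraries, which may be technical.

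NF-κB factors are dimers of Rel proteins. In resting cells most of them are held in the cytoplasm by IκB proteins, and signals from cytokine receptors, pattern receptors or damaged DNA lead to the destruction of IκB and the entry of the dimers into the nucleus. The genes that are then switched on include those for IκBα and for ubiquitin-editing enzymes, which close the loop. In the noncanonical branch the NFKB2 precursor is processed to the partner of RelB, and BIRC3 is a ligase that keeps this branch in check.

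Promoter sequence is shown for the 3 genes with a called response to olaparib, NFKB2, BIRC3 and TNFAIP3, and for NFKBIA, the classic feedback inhibitor. The sequences come from RefSeq on GRCh38.p14 and are written in the direction of transcription. Capitals mark matches to the κB consensus on either strand, searched in the 250 bases before the RefSeq start. The NFKB2 stretch lies at chr10:102393860-102394109 on the plus strand and directly precedes the gene. The NFKBIA stretch lies at chr14:35404750-35404999 on the minus strand, also directly before the gene. The BIRC3 stretch lies at chr11:102317234-102317449 on the plus strand and ends where the first GENCODE exon begins. For TNFAIP3 only the 30 bases around its matches are shown, at chr6:137867188-137867217 on the plus strand, inside the first exon of a GENCODE transcript that starts before the RefSeq start.
NFKB2: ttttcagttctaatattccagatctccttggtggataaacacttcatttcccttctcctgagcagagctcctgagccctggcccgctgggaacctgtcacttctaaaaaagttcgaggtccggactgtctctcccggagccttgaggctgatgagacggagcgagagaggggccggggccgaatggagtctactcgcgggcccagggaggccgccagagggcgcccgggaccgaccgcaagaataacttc
NFKBIA: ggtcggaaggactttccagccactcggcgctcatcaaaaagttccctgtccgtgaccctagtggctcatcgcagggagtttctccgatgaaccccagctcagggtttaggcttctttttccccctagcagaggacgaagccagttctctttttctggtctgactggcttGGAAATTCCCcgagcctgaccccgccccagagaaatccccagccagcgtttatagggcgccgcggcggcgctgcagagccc
BIRC3: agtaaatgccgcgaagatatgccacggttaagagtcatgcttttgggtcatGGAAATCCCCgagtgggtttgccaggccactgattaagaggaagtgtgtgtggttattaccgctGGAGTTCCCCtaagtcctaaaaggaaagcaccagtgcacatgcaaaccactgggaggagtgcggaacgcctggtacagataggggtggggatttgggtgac
TNFAIP3: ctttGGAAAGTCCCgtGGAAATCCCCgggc
NFKBIA held 1 match, 81 to 72 bases before the start. TNFAIP3 held 2, from base 67 to base 58 and from base 55 to base 46 before the start, and BIRC3 held 2, from base 199 to base 190 and from base 135 to base 126. Of the 8 members with a RefSeq promoter entry, 5 held at least 1 match, NFKB1 and REL being the other two. The windows of NFKB2, RELA and BCL3 held none. For RELA the bases after the RefSeq start were not found in any GENCODE transcript of the gene. The BCL3 window lies inside the GENCODE gene. Neither window need therefore precede the start used in these cells. Of all 35116 promoters searched in the same way, 9.96% held a match. These are matches of letters in a short window, and no binding was measured in these samples.

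Total counts lay between 15081973 and 17571922 per library, and the biological coefficient of variation over all genes was 12.9%. The EV and OE libraries stood far apart. The correlation of log2 CPM (CPM being counts scaled to TMM-normalized library sizes) was 0.981 to 0.991 within a condition, 0.976 to 0.99 between conditions of the same line and 0.728 to 0.753 between the lines. Several markers of breast epithelium went against the label in the EV libraries. EPCAM had 1 count in all 9 EV libraries against 252 to 352 CPM in the OE libraries, and KRT5 reached at most 0.124 CPM against 1062 to 1742 CPM. Of 6 luminal and adhesion markers, 3 averaged 1 CPM or more across the 9 EV libraries and all 6 did so across the 9 OE libraries, with summed levels of 2886 to 3789 CPM and 5063 to 8708 CPM. Of 7 basal markers, 2 reached such an average in EV and all 7 in OE, with summed levels of 145 to 205 CPM and 3028 to 5008 CPM. Of 6 fibroblast markers 2 did so in EV (summed 97.2 to 153 CPM) and 1 in OE (6.96 to 12.4 CPM), with DCN and LUM under it in both. Of 4 endothelial markers 3 are in the table, of which 1 did so in EV and 2 in OE. Of 8 immune markers 5 are in the table, of which 2 did so in EV and 3 in OE, the latter led by CD14 at 31.5 to 85.8 CPM. Their part in the differences between the lines was not tested. BRCA1 itself lay at 90.9 to 126 CPM in the libraries labelled EV and at 114 to 169 CPM in those labelled OE, all times together. Its ranges overlapped untreated and at 12 h. At 24 h they did not, with 90.9 to 99.5 CPM in EV and 155 to 169 CPM in OE. What follows therefore speaks of libraries labelled EV and OE, and a difference between them cannot be told apart from other differences between the cells that were sequenced.

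Over the 18 libraries the members were measured with 46 to 2373 counts each. The coefficient of variation within a condition had a median of 8.34% over the 60 combinations of gene and condition and ranged from 0.974% to 55.9%. REL was the least reproducible gene, with 55.9% in untreated OE and 51.7% in EV at 24 h. NFKBIA in untreated EV was the most reproducible.

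**Figure D1:**
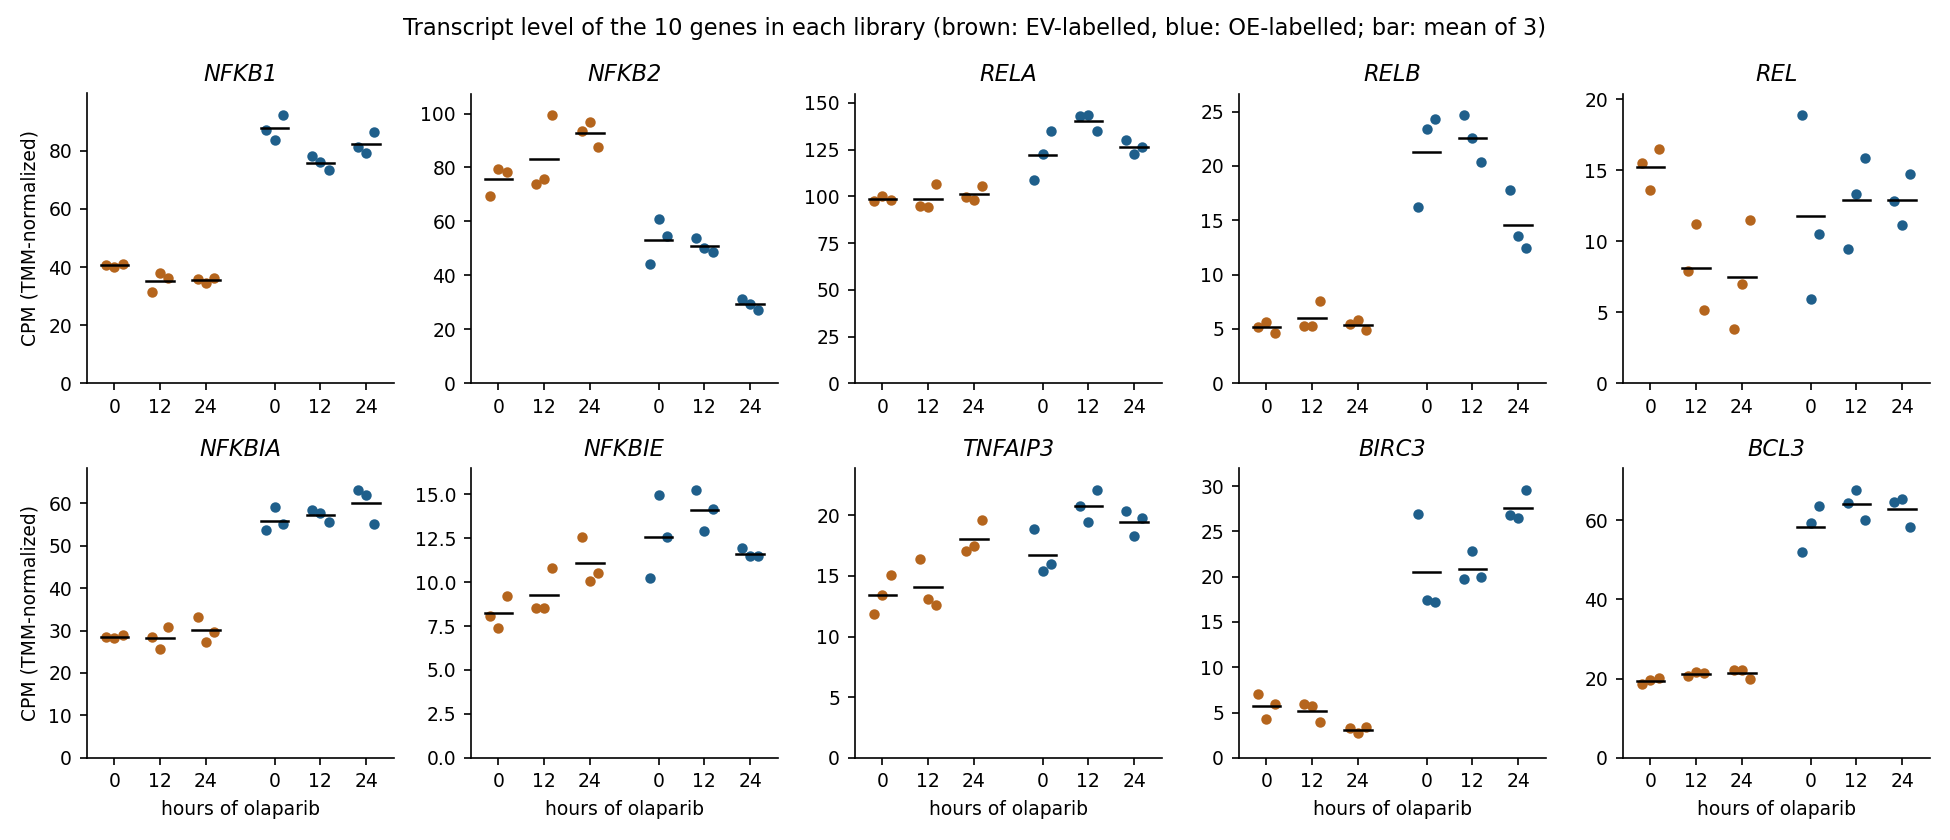
Level of each of the 10 genes in CPM (vertical axis, linear, starting at 0) against hours of olaparib, with 1 point per library, EV-labelled libraries in brown, OE-labelled libraries in blue and a bar for the mean of 3. NFKB1, RELA, RELB, NFKBIA, BIRC3 and BCL3 are higher in every OE library than in any EV library and NFKB2 is lower, with its lowest values, 27.3 to 31.1 CPM, in OE at 24 h.

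Levels are comparable between genes only per length, so CPM were also divided by the exonic length in kb. On this scale NFKB2, the precursor subunit of the noncanonical branch, led in EV with a mean of 18.7 CPM per kb over 9 libraries, next to RELA, the main activating subunit, with 18.2. NFKBIA followed with 12.2, BCL3 with 6.38 and NFKB1 with 5.93, and the lowest were REL with 0.779 and BIRC3 with 0.623. The first place of NFKB2 came from the treated libraries, since in untreated EV RELA had 18.03 CPM per kb and NFKB2 16.88. In OE the order began with NFKBIA at 24.3 CPM per kb and RELA at 23.7, followed by BCL3 at 19.0 and NFKB1 at 13.1. NFKB2 was only the fifth in OE, at 9.92 CPM per kb, and REL was the lowest at 0.952. Of REL's 13170 exonic bases, 5702 are shared with another gene on the same strand, where reads may have been lost. Its level per kb and its share of the subunits may therefore be too low in both lines.

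The makeup of the subunit transcripts differed accordingly. Each share is the gene's CPM per kb as a percentage of the sum over the 5 subunits in the same library. NFKB2 made up 38.1% ± 1.69 (SD, n = 3) of the subunit transcripts in untreated EV, 41.1% ± 2.53 at 12 h and 43.8% ± 2.06 at 24 h. In OE its share was 21.1% ± 2.17 untreated, 19.7% ± 0.450 at 12 h and 13.4% ± 0.716 at 24 h. The 24 h libraries labelled OE lay between 12.6% and 14.0%, below the lowest untreated OE library at 19.5%. RELA took about the same share in untreated EV, 40.8% ± 0.963, and untreated OE, 39.8% ± 0.974, and reached 47.6% ± 0.445 in OE at 24 h. RELB, the partner of the processed NFKB2 product, made up 3.84% ± 0.377 in untreated EV and 12.4% ± 1.56 in untreated OE.

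**Figure D2:**
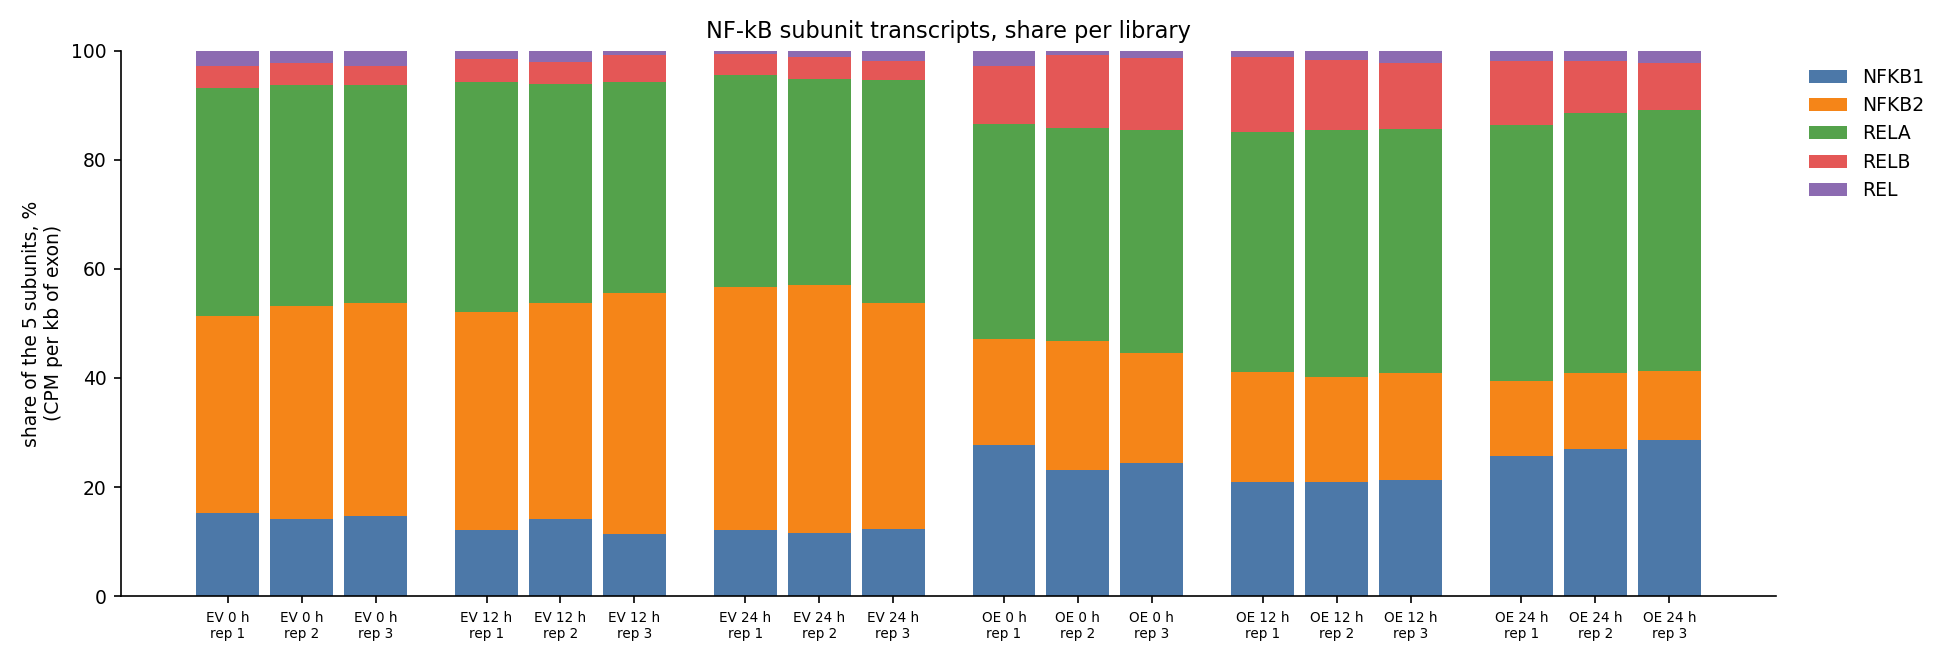
Stacked bars give, for each of the 18 libraries, the percentage of the summed CPM per kb of exon that falls to each of the 5 NF-κB subunits. The orange NFKB2 segment is widest in the EV libraries at 24 h, with a mean of 43.8%, and narrowest in the OE libraries at 24 h, with a mean of 13.4%, while the RELA segment stays between 37.8% and 47.9% in all libraries.

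In libraries labelled OE, the 10 genes were without a called change at 12 h of olaparib, and at 24 h 1 of them, NFKB2, fell. A gene is called when its Benjamini-Hochberg adjusted p in edgeR's quasi-likelihood test is under 0.05. At 24 h 1 of 10 members was called, beside 8.26% of all genes tested (4.71% higher and 3.55% lower), and the median log2 fold change of the members was 0.08 against 0.02 over all genes. At 12 h no member was called, beside 2.31% of all genes (1.7% higher and 0.605% lower, 423 called in all, and 2137 at an unadjusted p under 0.05), with 3 members at an unadjusted p under 0.05 and 0 called by DESeq2's Wald test. In bulk RNA, less RNA per cell and fewer cells of a kind cannot be told apart.

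NFKB2 (ENSG00000077150, GRCh38 chr10:102394110-102402529, plus strand) stood at 44.2, 60.9 and 54.7 CPM in the 3 untreated OE libraries, at 53.8, 50.2 and 48.7 CPM at 12 h and at 31.1, 29.4 and 27.3 CPM at 24 h. All 3 libraries at 24 h lay below all 6 earlier OE libraries, and the 12 h libraries lay within the untreated range. Its log2 fold change at 24 h against untreated was -0.86 ± 0.13 (SE), a fall to 0.549 of the untreated level, with an adjusted p of 0.000147. Against 12 h the log2 fold change was -0.80 ± 0.13, with an adjusted p of 0.00224, and NFKB2 was the only member called there, beside 1.65% of all genes (0.791% higher and 0.862% lower). In a fit to the compared conditions alone 19.6% of all genes and 3 members were called. At 12 h against untreated it was -0.07, with an interval from -0.32 to 0.19.

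RELB came next in size. It stood at 16.3, 23.4 and 24.3 CPM in untreated OE, at 24.7, 22.6 and 20.4 CPM at 12 h and at 17.8, 13.6 and 12.4 CPM at 24 h. The ranges at 0 h and 24 h overlapped through the first untreated library. The log2 fold change at 24 h was -0.55 ± 0.17 with an adjusted p of 0.0532, just outside the threshold, and without untreated OE replicate 1 it was -0.71 and called.

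The canonical subunits had small values. NFKB1, the precursor of the subunit that pairs with RelA in the canonical dimer, stood between 79.1 and 86.3 CPM in OE at 24 h and between 83.6 and 92.3 CPM untreated. RELA stood between 122 and 130 CPM at 24 h and between 108 and 135 CPM untreated. Both ranges overlapped, with log2 fold changes of -0.09 (interval -0.28 to 0.09) and 0.05 (interval -0.14 to 0.23). REL, the subunit best known from lymphocytes, stood at 18.9, 5.91 and 10.5 CPM in untreated OE, a spread that left its change at 24 h at 0.13 with an interval from -0.59 to 0.85.

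Among the inhibitors of libraries labelled OE, none was called. NFKBIA, which encodes IκBα, stood at 53.7, 59.0 and 55.0 CPM untreated and at 63.2, 61.9 and 55.1 CPM at 24 h. The groups overlapped, and the log2 fold change was 0.10 with an interval from -0.10 to 0.31. TNFAIP3, a ubiquitin-editing enzyme that turns off receptor complexes, had a log2 fold change of 0.31 after 12 h, with an adjusted p of 0.327, and of 0.22 after 24 h, with an adjusted p of 0.336. BIRC3, an inhibitor of apoptosis protein and ubiquitin ligase, stood at 26.9, 17.4 and 17.2 CPM untreated and at 26.8, 26.5 and 29.6 CPM at 24 h. The first untreated library lay among the 24 h libraries, and the log2 fold change of 0.43 ± 0.18 was not called (adjusted p = 0.142). Without that untreated replicate it was 0.67 and called. NFKBIE, which encodes IκBε, and BCL3, an IκB-like nuclear partner of NF-κB dimers, had log2 fold changes of -0.12 and 0.11 at 24 h, with adjusted p of 0.704 and 0.554.

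In libraries labelled EV, NFKB2 did not fall, and at 24 h 1 member rose and 1 fell. TNFAIP3 and BIRC3 were the 2 of 10 called, beside 13.7% of all genes tested (8.62% higher and 5.12% lower), and the members' median log2 fold change was 0.07 against 0 over all genes. With each gene's GC content as a smooth offset in the fit, the members' median was -0.17. At 12 h none was called, beside 0.0436% of all genes (0.0273% higher and 0.0164% lower, 8 called in all, 2963 at an unadjusted p under 0.05), and between 12 h and 24 h none, beside 0.18% (0.136% higher and 0.0436% lower, 33 called in all, 1686 at an unadjusted p under 0.05). In each of these comparisons 2 members had an unadjusted p under 0.05, and DESeq2's Wald test called 0.

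BIRC3 (ENSG00000023445, GRCh38 chr11:102317450-102339403, plus strand) stood at 7.02, 4.26 and 5.92 CPM in untreated EV, at 5.96, 5.69 and 3.94 CPM at 12 h and at 3.31, 2.71 and 3.35 CPM at 24 h. All 3 libraries at 24 h lay below the 6 earlier EV libraries, at 46 to 56 counts per library. The log2 fold change at 24 h was -0.87 ± 0.22, with an adjusted p of 0.0153. The call was lost without untreated EV replicate 1 (adjusted p = 0.0949) and without EV 24 h replicate 2 (adjusted p = 0.0752).

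TNFAIP3 (ENSG00000118503, GRCh38 chr6:137867188-137883312, plus strand) stood at 11.9, 13.4 and 15.0 CPM in untreated EV, at 16.4, 13.1 and 12.6 CPM at 12 h and at 17.1, 17.5 and 19.6 CPM at 24 h. The 24 h libraries lay above the 6 others. The log2 fold change was 0.43 ± 0.13 with an adjusted p of 0.0387, but the call was lost whichever of the 6 compared libraries was left out, with log2 fold changes of 0.34 to 0.50. Its exons share 95 bases with the antisense gene WAKMAR2, and the strand setting of the counting is not given in the sources used here. WAKMAR2 lay at 1.47 CPM on average over all libraries.

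REL had the largest estimate without a call. It stood at 15.5, 13.6 and 16.5 CPM in untreated EV, at 7.88, 11.3 and 5.16 CPM at 12 h and at 3.84, 7.02 and 11.5 CPM at 24 h. All 6 treated EV libraries lay below the untreated libraries. The log2 fold changes were -0.91 ± 0.35 with an adjusted p of 0.217 after 12 h and -1.03 ± 0.35 with an adjusted p of 0.0555 after 24 h. At 24 h it was called in 1 of 6 fits with a library left out, without EV 24 h replicate 3 (-1.49, adjusted p = 0.0195). Of 8 alternatives 3 called it. These were no filter on low counts (adjusted p = 5.09e-06), at least 10 counts in every library (adjusted p = 0.0488) and the compared conditions alone (adjusted p = 0.00411). With the GC offset REL was at -0.77 and not called (adjusted p = 0.105). The 3 libraries at 24 h differed by a coefficient of variation of 51.7%. Of REL's exons, 5702 bases are shared with an unnamed gene on the same strand, ENSG00000267520, so reads there may have been split or dropped.

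NFKB2 stood at 69.3, 79.5 and 78.3 CPM in untreated EV, at 73.8, 75.6 and 99.5 CPM at 12 h and at 93.6, 96.7 and 87.8 CPM at 24 h. The 24 h libraries lay above the untreated ones, the opposite order to OE, with a log2 fold change of 0.29 ± 0.12 that was not called (adjusted p = 0.108). NFKBIE had a log2 fold change of 0.43 with an adjusted p of 0.0697. The other members, NFKB1, RELA, RELB, NFKBIA and BCL3, had log2 fold changes between -0.19 and 0.14 at 24 h. NFKBIA, at 28.6, 28.3 and 28.9 CPM untreated and 33.2, 27.4 and 29.7 CPM at 24 h, had a log2 fold change of 0.07 with an interval from -0.14 to 0.29.

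**Figure D3:**
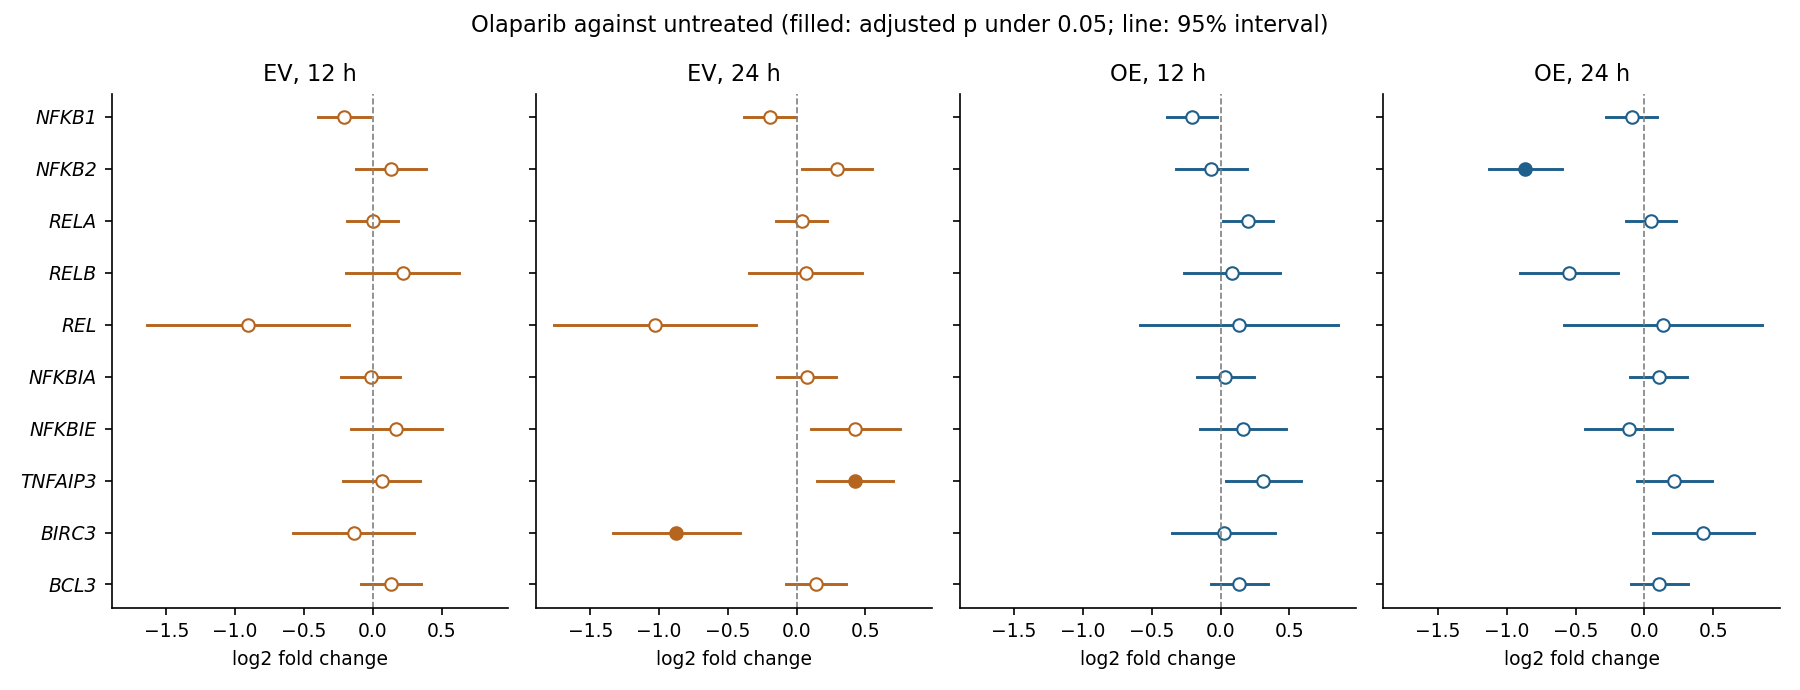
Log2 fold change against untreated (horizontal axis) of each of the 10 genes in EV and OE libraries at 12 h and 24 h, with the 95% interval as a line and filled points for adjusted p under 0.05. The filled points are BIRC3 (-0.87) and TNFAIP3 (0.43) in EV at 24 h and NFKB2 (-0.86) in OE at 24 h.

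The difference between the responses of OE and EV was tested directly with an interaction contrast. At 24 h it was called for NFKB2 and BIRC3, 2 of 10 members beside 19.4% of all genes (8.16% higher and 11.2% lower in OE). NFKB2 responded lower in OE than in EV by a log2 difference of -1.16 ± 0.18 (adjusted p = 0.00036), with responses of -0.86 in OE and 0.29 in EV. BIRC3 responded higher in OE by 1.30 ± 0.28 (adjusted p = 0.00446), with responses of 0.43 in OE and -0.87 in EV. Both calls held when any of the 12 libraries involved was left out, with differences of -1.27 to -1.05 for NFKB2 and 1.14 to 1.55 for BIRC3. For TNFAIP3 the difference was -0.21 with an interval from -0.60 to 0.18, so the call in EV alone does not set the lines apart. REL, RELB and NFKBIE had differences of 1.16, -0.61 and -0.54, with adjusted p of 0.102, 0.105 and 0.0839. At 12 h no member was called, beside 0.518% of all genes (0.376% higher and 0.142% lower, 95 called in all, 2690 at an unadjusted p under 0.05), with 1 member at an unadjusted p under 0.05 and 0 called by DESeq2's Wald test. REL had the largest difference there, 1.04, with an adjusted p of 0.335.

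The libraries differed in how gene levels ran with GC content, both between times and within a condition. For each library, the rank correlation across genes between the deviation from the mean of its line and the GC content of the transcript was computed as a description. It was -0.59, -0.23 and -0.44 in untreated EV and 0.28, 0.62 and 0.43 in EV at 24 h. In OE it was -0.59, 0.30 and 0.55 untreated and -0.29, -0.40 and -0.45 at 24 h. The 24 h values were within the untreated range only through untreated replicate 1. At 12 h it was -0.60, -0.22 and 0.65 in EV and 0.55, 0.18 and 0.21 in OE. The members span a wide range of GC content, from 34.8% for BIRC3 and 38.7% for REL to 62.4% for NFKB2, 65.4% for RELB and 67.4% for BCL3. With a smooth GC term as an offset, NFKB2 in OE at 24 h fell by 0.68 on the log2 scale (adjusted p = 9.66e-07). Against 12 h its log2 fold change was then -0.58 (adjusted p = 6.79e-05). BIRC3 and TNFAIP3 in EV stayed called with log2 fold changes of -0.56 and 0.43. The difference between the lines' responses was then -0.66 for NFKB2 and 0.88 for BIRC3, both called, 0.03 for RELB and -0.11 for NFKBIE. RELB in OE was -0.31 and not called, NFKB2 in EV was -0.02, and BCL3 in OE, at 0.37, was called (adjusted p = 0.0278).

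**Figure D4:**
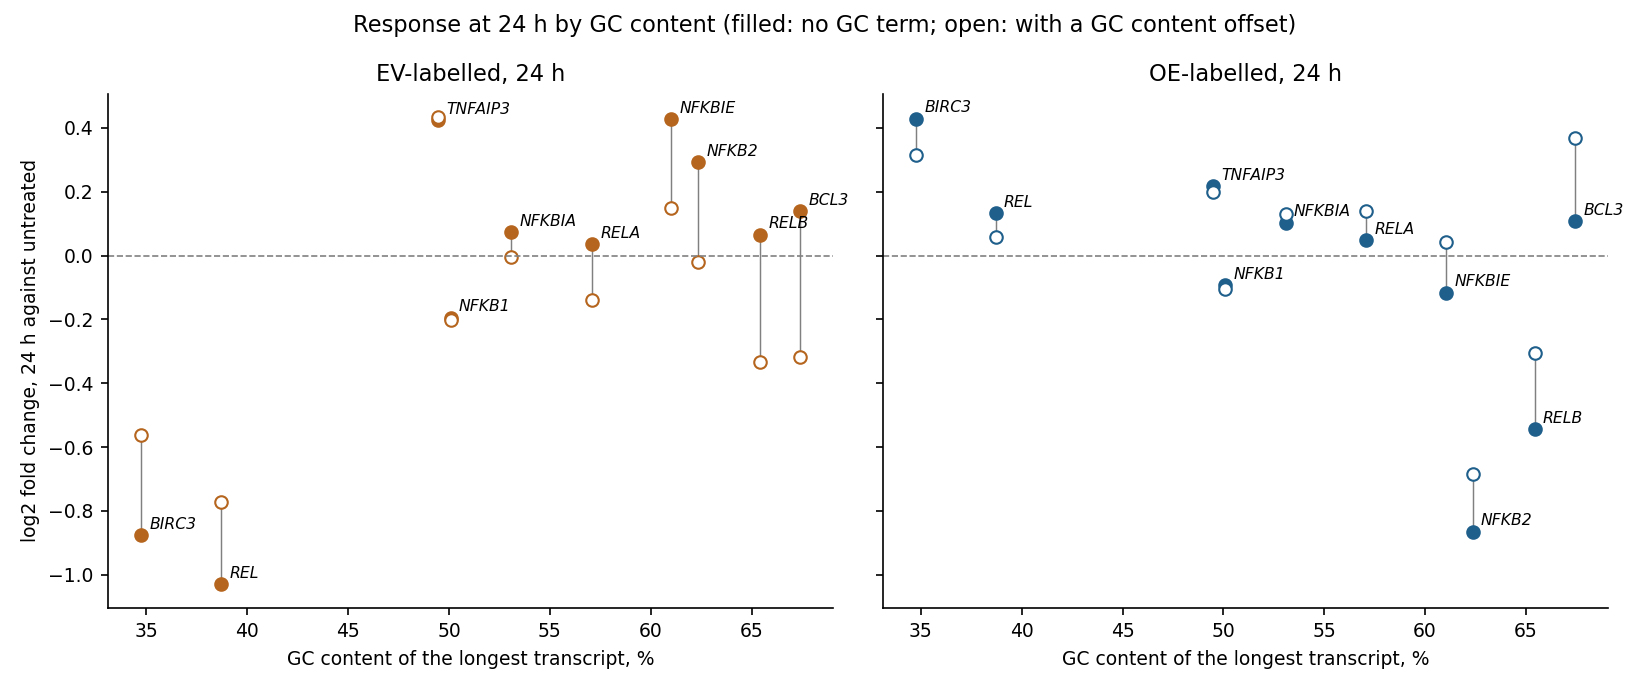
Log2 fold change at 24 h against untreated (vertical axis) against the GC content of each gene's longest transcript (horizontal axis, %), in EV libraries at left and OE libraries at right, without a GC term (filled) and with a GC offset (open). NFKB2 in OE moves from -0.86 to -0.68 and BIRC3 in EV from -0.87 to -0.56, while RELB in OE moves from -0.55 to -0.31.

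Between the lines most members differed at every time. In untreated libraries 8 members were higher and 1 lower in OE than in EV, beside 72.7% of all genes called (39.4% higher and 33.3% lower). At 12 h the counts were again 8 and 1, beside 72.9% (38.8% higher and 34.1% lower), and at 24 h 7 and 1, beside 73.9% (39.9% higher and 34% lower). The members' median log2 difference was 0.79, 0.84 and 0.90 at these times, against 0.11, 0.08 and 0.12 over all genes. With most genes called, a call between the lines carries little about these genes, and the sizes are given as a description of the cells sequenced. The GC offset was fitted to deviations from the mean of each line. It therefore cannot remove or show a GC trend that lies between the lines.

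The noncanonical pair went opposite ways. RELB was higher in OE, with 16.3 to 24.3 CPM against 4.63 to 5.62 CPM untreated, a log2 difference of 2.05 ± 0.19 (adjusted p = 2.84e-09). NFKB2 was lower in OE by a log2 difference of -0.51 ± 0.12 untreated (adjusted p = 0.00096), -0.70 at 12 h and -1.66 ± 0.13 at 24 h. At 24 h it lay at 27.3 to 31.1 CPM in OE and at 87.8 to 96.7 CPM in EV, 0.316 of the EV level.

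Of the other subunits, NFKB1 was higher in OE by 1.11, 1.11 and 1.21 on the log2 scale at 0 h, 12 h and 24 h, and RELA by 0.31, 0.51 and 0.32. All 9 OE libraries lay above all 9 EV libraries for both genes, at 73.5 to 92.3 against 31.4 to 41.2 CPM for NFKB1 and at 108 to 144 against 94.2 to 107 CPM for RELA. REL was not called untreated (-0.37, adjusted p = 0.34) or at 12 h (0.67, adjusted p = 0.0959). Leaving out 1 library gave a call in both, without untreated OE replicate 1 (-0.89, adjusted p = 0.0233) and without EV 12 h replicate 2 (0.98, adjusted p = 0.035). At 12 h it was also called without a filter, with the compared conditions alone and with the GC offset (0.77, adjusted p = 0.0317). At 24 h its difference of 0.79 ± 0.35 was at the edge of the threshold (adjusted p = 0.0497), and the call was lost when any of 5 of the 6 libraries was left out, EV 24 h replicate 3 being the exception. It was also lost with the GC offset (0.56, adjusted p = 0.109), DESeq2's Wald test (adjusted p = 0.0775) and a replicate block (adjusted p = 0.0559).

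The inhibitors were all higher in untreated OE. BIRC3 had the largest difference, with log2 values of 1.84, 1.999 and 3.14 at 0 h, 12 h and 24 h. At 24 h it lay at 26.5 to 29.6 CPM in OE against 2.71 to 3.35 CPM in EV, 8.82-fold higher. BCL3 was higher by 1.58, 1.59 and 1.55 and NFKBIA by 0.97, 1.02 and 0.998, the values at 0 h, 12 h and 24 h in turn. With the GC offset described above, which acts within each line only, those of BCL3 were 1.26, 1.52 and 1.94. BCL3 is the member with the highest GC content. Its difference in response at 24 h was then 0.69 and called (adjusted p = 0.00588). BCL3 shares 65 exonic bases with ENSG00000284258 on the same strand. NFKBIA lay at 53.7 to 63.2 CPM in OE against 25.7 to 33.2 CPM in EV, without overlap. TNFAIP3 differed by 0.32 untreated (adjusted p = 0.0379), and this call was lost without untreated EV replicate 1 or 2 or untreated OE replicate 1. NFKBIE differed by 0.61 untreated. At 24 h NFKBIE and TNFAIP3 were not called, at 0.07 (interval -0.25 to 0.39) and 0.11 (interval -0.16 to 0.38).

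**Figure D5:**
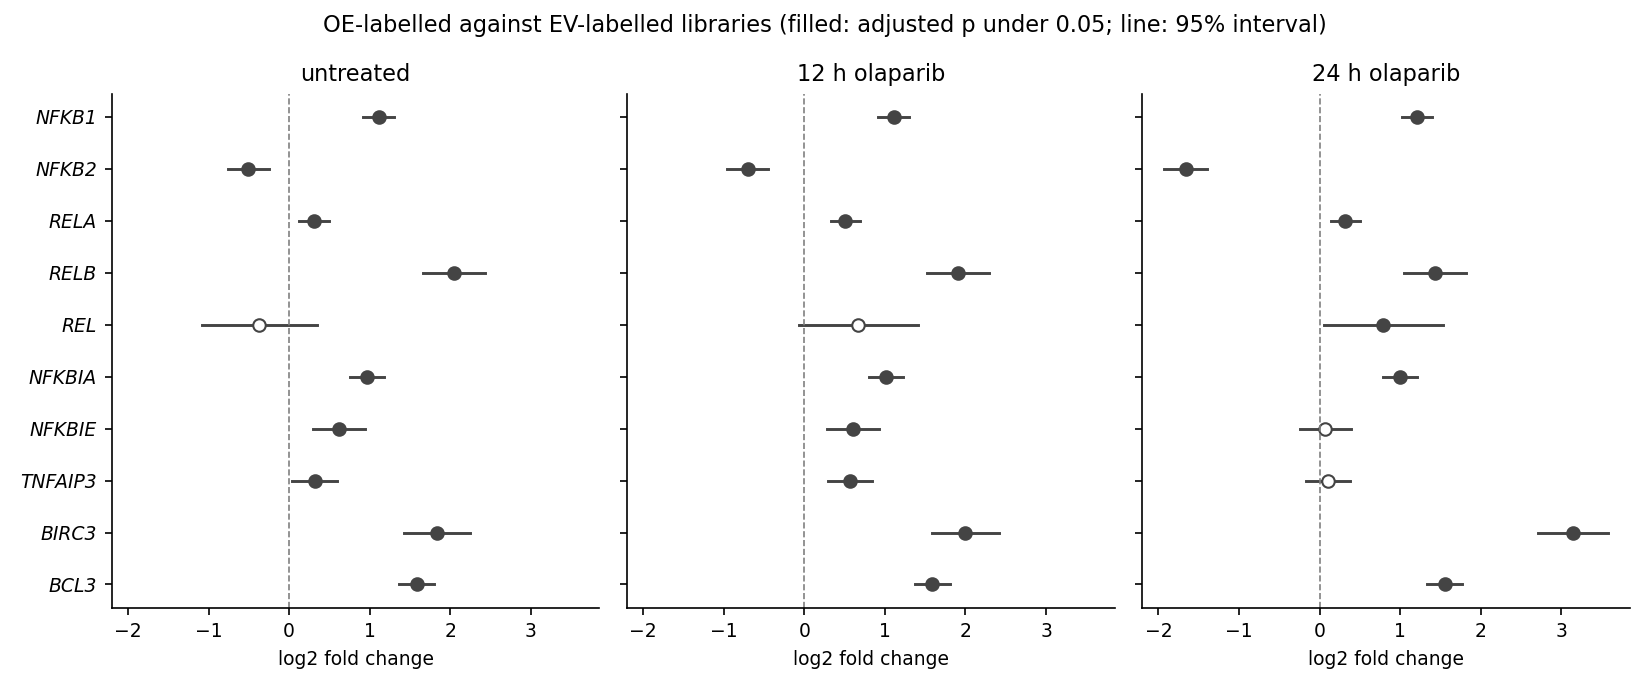
Log2 difference of OE-labelled against EV-labelled libraries (horizontal axis) for the 10 genes, untreated and at 12 h and 24 h, with the 95% interval as a line and filled points for adjusted p under 0.05. NFKB2 is the called gene to the left of 0 at each time, moving from -0.51 to -1.66, and BIRC3 moves from 1.84 to 3.14.

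Other genes of the pathway were counted in 4 lists, written from general knowledge but with earlier results of these data known. Of 16 further inhibitors and modifiers, 15 were tested, and in OE at 24 h 4 rose and 4 fell, beside 4.71% and 3.55% of all genes, with a median log2 fold change of -0.04. USP18, a protease that removes the ubiquitin-like ISG15 protein, was at 80.5 to 87.1 CPM untreated, 159 to 194 CPM at 12 h and 173 to 180 CPM at 24 h, a log2 fold change of 1.05 (adjusted p = 5.44e-07). NFKBIZ, an IκB-like nuclear protein, rose by 0.57 on the log2 scale, from 23.6 to 33.2 CPM untreated to 41.0 to 47.0 CPM. PDLIM2, which promotes the degradation of RelA, stood at 15.0, 26.4 and 22.3 CPM untreated, 11.2, 12.5 and 13.5 CPM at 12 h and 4.36, 4.54 and 5.52 CPM at 24 h. PDLIM2 fell by 2.14 on the log2 scale (adjusted p = 3.15e-06), with all 3 libraries at 24 h below the other 6. TNIP1, a partner of the TNFAIP3 protein, was 1.21 higher in untreated OE than EV. The others called at 24 h, named after their values were seen, were ZC3H12A (0.55) and CYLD (0.50) among those that rose and NFKBIB (-0.77), TNIP2 (-0.52) and TRAF3 (-0.37) among those that fell. In EV at 24 h 1 of the 15 was called, beside 13.7% of all genes (8.62% higher and 5.12% lower). This was CYLD, a deubiquitinase, with -0.37, again named after its value was seen. The lines' responses differed for 8 of the 15, 3 higher and 5 lower in OE, beside 19.4% of all genes (8.16% higher and 11.2% lower).

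Of 28 kinases and adaptors, 27 were tested. In OE at 24 h 2 rose and 2 fell, beside 4.71% and 3.55% of all genes, with a median of 0.03, and in EV 3 rose and 1 fell, with a median of -0.15, beside 8.62% of all genes that rose and 5.12% that fell in EV. IRAK2, a kinase of the interleukin-1 and Toll-like receptor pathway, stood at 6.65 to 7.93 CPM untreated and 11.4 to 15.5 CPM in OE at 24 h, a log2 fold change of 0.81 (adjusted p = 0.00941). MYD88, the adaptor of these receptors, stood at 0.118 to 0.531 CPM in EV and 20.1 to 39.5 CPM in OE over all times. TRAF5, an adaptor of TNF receptors, was lower in untreated OE than EV by a log2 difference of -2.92, and SHARPIN, a part of the linear ubiquitin ligase, was higher by 2.005.

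Of 22 receptors and ligands, 17 were tested. None was called in EV at 24 h by edgeR, beside 13.7% of all genes, with 2 at an unadjusted p under 0.05. The filter also kept genes expressed mainly in OE, such as TLR2, and these could hardly be called in EV. The count in EV is therefore not comparable with that share. In OE 4 rose and 1 fell, beside 4.71% and 3.55% of all genes, with a median of 0.59. TLR2, a receptor for bacterial lipoproteins, had no count in untreated EV and 14.2 to 17.4 CPM in untreated OE, at least 249-fold higher against a floor of 3 counts over the 3 EV libraries. TLR5, TNFSF13B and IL1RAP were higher in untreated OE by 5.22, 5.19 and 3.73 on the log2 scale.

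Of 30 target genes, 23 were tested. In OE at 24 h 6 rose and none fell, beside 4.71% and 3.55% of all genes, with a median of 0.24. In EV 1 rose and none fell, beside 8.62% and 5.12%: the apoptosis regulator CFLAR (0.31, named after its value was seen), with a median of 0.09. Targets without a count in untreated EV, such as CXCL1, CXCL8, CXCL10 and IL6, could hardly be called there. This EV count is therefore not comparable with those shares. CXCL1, a neutrophil chemokine, stood at 5.91, 8.75 and 4.53 CPM in untreated OE, 12.8, 14.7 and 13.5 CPM at 12 h and 18.4, 18.8 and 15.1 CPM at 24 h. CXCL10, a chemokine that is also induced by interferon, stood at 5.97, 4.81 and 4.09 CPM untreated, 39.7, 45.4 and 40.4 CPM at 12 h and 15.3, 16.6 and 10.97 CPM at 24 h. Both rose without overlap with the untreated libraries, by 1.44 and 1.53 on the log2 scale at 24 h. In untreated EV neither had a count, so that untreated OE was at least 104-fold higher for CXCL1 and at least 80.2-fold higher for CXCL10. LCN2, an iron-binding protein of innate defence, stood at 778 to 1102 CPM in untreated OE against 1.61 to 1.91 CPM in untreated EV, and SAA1, an acute phase protein, was higher by 6.77 on the log2 scale. The other 4 targets that rose in OE at 24 h, named after their values were seen, were CX3CL1, CXCL8, IL6 and IRF1. The last of these, an interferon regulatory factor, stood at 40.1 to 44.1 CPM untreated and 72.6 to 80.2 CPM at 24 h.

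The genes whose pattern was most like that of the most variable member of each line were listed by Pearson correlation of log2 CPM over the 9 libraries of the line, as a description. Among 14172 genes in OE, NFKB2, with a log2 range of 0.86 between condition means, was most like CDC42EP1 (r = 0.993), ACTB (0.992), ANXA11 (0.990), KRT7 (0.985) and COTL1 (0.984). Among 13017 genes in EV, REL, with a range of 1.03, was most like KAT6A and USP34 (both 0.988), BIRC6, SMG1 and ANKRD17 (all 0.985). The 5 genes most like REL have GC contents of 40.4% to 45.4%, and the 5 most like NFKB2 have 49.8% to 66.4%. The points share libraries and depth, and the part of the libraries' GC trend in these correlations was not tested.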

How the data were processed

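RNA was sequenced from 18 libraries, 3 for each of 6 conditions. Per the labels, RNA was extracted with TRIzol and made into libraries with a NEBNext Ultra II kit. What the authors deposited are raw, whole-number counts of reads for each gene, not normalized, in 1 table of 35044 genes and in 18 tables of single libraries that were checked to be identical to it. The submitters' processing notes name HISAT2, featureCounts, DESeq2 and the builds GRCh38 and hg38, without versions or roles. Annotation and strandedness are not given in the sources used here.

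Total counts were 15081973 to 17571922, and the rarest member has 46 counts in its lowest library. Counting floors cover counting error only, since reads carry no molecular identifiers. Counts were analysed with edgeR 4.0.16 (limma 3.58.1, R 4.3.3): TMM, filterByExpr by condition (18335 genes), the quasi-likelihood test with 1 mean per condition over all 18 libraries, and Benjamini-Hochberg adjustment over all genes tested, called under 0.05. Comparisons were 12 h and 24 h against untreated and against each other in each line, OE against EV at each time, and the difference of the responses, 11 in all. Intervals are 95%. The tests were also run on simulated counts, which held no GC trend, as a check of the code and not of these data.

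Gene symbols matched 34966 identifiers. Positions, lengths and GC content are from GENCODE 29 on GRCh38 (33888 genes). Promoters are from RefSeq on GRCh38.p14, with 8 of 10 members matched, RELB and NFKBIE having no entry used here. Every member is named. Of each other list up to 4 genes are named by rule, those with the largest absolute log2 fold change among genes called in OE or EV at 24 h or between the untreated lines, at a mean of at least 1 CPM. Further genes of these lists are marked as named after their values were seen. TNIP3 and SOD2 were not analysed here. The members and lists were chosen with earlier results of these data known. Alternatives were DESeq2's size factors, DESeq2 1.42.0's Wald test, no filter, at least 10 counts in every library, a minimum absolute log2 fold change of 0.5, a fit to only the conditions compared, a replicate block, a GC offset (spline with 4 df, GC known for 98.6% of tested genes) and each library left out.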

Additional observations from a re-analysis of the deposited data

Results flagged for a closer look

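The response to 24 h of olaparib differed between the libraries labelled OE and EV for 2 of the 10 genes, by edgeR's test of the difference itself, beside 19.4% of all genes. For NFKB2 the log2 difference (OE response minus EV response) was -1.16, and the direction differed in the libraries too: all 3 OE libraries at 24 h lay below the untreated OE libraries, and all 3 EV libraries at 24 h lay above the untreated EV libraries. For BIRC3 the log2 difference was 1.30, with all 3 EV libraries at 24 h below the untreated EV libraries and overlap in OE. The GC trend of the EV libraries at 24 h lay above that of all untreated EV libraries. In OE the 24 h libraries lay within the untreated range of this trend only through untreated replicate 1, at -0.59. They lay below untreated replicates 2 and 3 and below all OE libraries at 12 h. With a GC offset the differences were -0.66 and 0.88 and both remained called, while NFKB2 in EV was at -0.02, so that its opposite direction in EV was not seen.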

How the results depend on the processing

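NFKB2 in OE at 24 h and the differences between the lines' responses for NFKB2 and BIRC3 kept direction and call under every alternative run. Of 880 member values under the alternatives, 845 stayed on their side of the threshold, 809 of them with the same sign and 36, none of them called, with the other sign. Another 23 gained a call, 11 lost one and 1 reversed. Of the 36, 19 came with the GC offset. With a library left out, 754 of 780 stayed on their side, 66 of them uncalled with the other sign, 10 gained a call and 16 lost one. The reversed value, which also gained a call, is the difference in response of BCL3 at 24 h, -0.03 and 0.69 with a GC offset.

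Percentages in this paragraph are the share of all genes called under the same setting. Without a filter 1 member was called for EV at 12 h (2.33%) and 1 for the difference at 12 h (1.84%), both REL. For the difference at 24 h 3 were called (10.6%, adding REL). For OE at 24 h 2 were called against untreated (6.1%) and 2 against 12 h (2.74%). For EV at 24 h the 2 calls became 1 with the minimum fold change (8.78%) and 5 with the compared conditions alone (34.9%). They became 3 with the Wald test (18.6%, adding NFKBIE) and 3 with at least 10 counts (23.7%, adding REL). Without a filter they were 2 (8.77%), REL in place of TNFAIP3. With a library left out they were 0 to 2 (2.45% to 11.8%), 0 without untreated replicate 1 or 24 h replicate 2. For OE at 24 h the 1 call became 2 with DESeq2's size factors (8.26%), the Wald test (11.7%) or at least 10 counts (11.3%), each adding RELB. It became 2 with a GC offset (13.3%, adding BCL3). With a library left out there were 1 to 3 calls (3.42% to 17.7%), 3 without untreated replicate 1. Against 12 h the 1 call became 2 with the Wald test (4.31%) and 3 with the compared conditions alone (19.6%). For the difference at 24 h the 2 calls became 4 with a GC offset (17.5%, adding RELA and BCL3). With a library left out there were 2 to 5 (10.9% to 29.2%), 5 without untreated OE replicate 1. Between the lines the calls ranged from 7 to 9 untreated, 9 to 10 at 12 h and 7 to 8 at 24 h, with TNFAIP3, REL and RELA the genes that lost one. The causes were not tested.

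Over all genes, the calls moved by over 1.5 times as follows. EV at 12 h went from 8 to 245 with the Wald test, 818 without a filter, 0 with the compared conditions alone, 1 with the block, 48 with a GC offset and 1 to 462 with a library left out, 462 without EV 12 h replicate 1. EV at 24 h went from 2520 to 1609 with the minimum fold change, 5173 with the compared conditions alone and 462 to 2227 with a library left out, 462 without untreated replicate 1. EV at 24 h against 12 h went from 33 to 145 with the Wald test, 139 without a filter, 6 with the compared conditions alone, 139 with a GC offset and 14 to 115 with a library left out. OE at 12 h went from 423 to 671 with the Wald test, 889 with a GC offset and 257 to 468 with a library left out. OE at 24 h went from 1515 to 809 with the compared conditions alone, 2434 with a GC offset and 644 to 3329 with a library left out, 3329 without untreated replicate 1. OE at 24 h against 12 h went from 303 to 791 with the Wald test, 959 without a filter, 3208 with the compared conditions alone, 513 with a GC offset and 69 to 103 with a library left out. The difference at 12 h went from 95 to 326, 644, 37, 499 and 49 to 772 under the same settings in turn, and that at 24 h from 3554 to between 2062 and 5502 with a library left out, without untreated OE replicates 2 and 1. Between the lines at least 10 counts gave 8774, 8737 and 8871 calls among the 12035 genes then tested.

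Replicates with the same number showed little likeness over all genes: 2 of 18 correlations of their deviations exceeded 0.1, in a range from -0.227 to 0.147. With 3 libraries per condition this cannot exclude a shared culture or batch. With a replicate block the members called stayed at 2 for EV and 1 for OE at 24 h, and REL between the lines at 24 h was lost (0.81, adjusted p = 0.0559). BIRC3 in EV, at 46 to 113 counts, held the lowest count of any member, and REL had the largest spread within a condition. RELB in EV was also low, at 75 to 111 counts. Depth and spread limit the statements on these genes.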
